A study of Homo sapiens with 2 samples.

Results

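The Kruppel-like factor genes KLF2, KLF3, KLF4, KLF5, KLF6, KLF9, KLF10, KLF11, KLF13 and KLF16 were followed in HCT-116 cells, a long-used line from a human colorectal carcinoma, with and without lysophosphatidic acid (LPA). All 10 genes were found by their symbol among the 26254 gene symbols of the deposited isoform table, where they hold 23 of 63236 isoforms. The study sequenced poly-A RNA from untreated cells (1 control library) and from cells that were serum starved and then given 10 µM LPA for 24 h (1 library). The cells were grown in medium with 10% fetal bovine serum, and the labels do not say whether the control cells were also starved. If they were not, LPA and starvation cannot be told apart. Both library titles carry the number 3, no replicate library is used here, and every difference below is a difference between 2 libraries without a replicate check or a p-value. In such bulk RNA, fewer cells of a kind and less RNA per cell cannot be told apart.

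Kruppel-like factors bind GC boxes and CACCC boxes in promoters through zinc fingers at the C-terminal end, and their N-terminal parts recruit partners that activate or repress. The family falls into activators (KLF2, KLF4, KLF5 and KLF6 here), repressors that recruit the corepressor CtBP (KLF3) and repressors that recruit SIN3A (KLF9, KLF10, KLF11, KLF13 and KLF16). In the gut, KLF5 is known from dividing crypt cells and KLF4 from differentiating cells nearer the lumen. LPA, a lipid that signals through G protein-coupled receptors, has been described to raise KLF5 in colon cancer cells, which makes the family of interest in this design.

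Levels are given as FPKM, fragments scaled to isoform length and library size, which allow comparison between genes of different length. Isoforms were summed per gene, and paired values give the control first and the LPA library second. Differences are log2((LPA FPKM + 1)/(control FPKM + 1)), called the log2 ratio, and understate differences of low genes. A gene was counted as apart at 1.5-fold on this scale, and a gene was measured when its mean over both libraries was at least 1 FPKM. All 10 genes were measured, among 11686 in the whole table. The worth of 1 fragment, read from the lowest values of the table, put the depth at about 16700000 fragments without LPA and 15700000 with LPA. At this depth 1 FPKM on an isoform of 2000 nt stands for about 33.4 and 31.5 fragments. Intervals quoted below are 95% intervals from these estimated fragments and cover counting error only. The robust SD of the log2 ratio among genes at a mean of 5 FPKM or more was 0.24.

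Checked against its markers, the epithelial line had transcripts of EPCAM (220 FPKM without LPA and 223 FPKM with LPA), CDH1 (10.4 and 11.4 FPKM) and the keratin genes KRT8 (1208 and 1507 FPKM) and KRT18 (442 and 741 FPKM). All 6 measured of the 11 epithelial and colon markers were above 0 on the log2 ratio, with a median of 0.23, and KRT18, at 0.74, was past 1.5-fold. Of 20 reference genes 12 were above and 8 below 0, with a median of 0.05, and B2M (935 and 619 FPKM, log2 ratio -0.60) was past 1.5-fold. The intestinal factor CDX2 had 9.41 and 10.5 FPKM, while CDX1 and VIL1 were listed at 0 in both libraries and LGALS4, CDH17 and GPA33 stayed under 1 FPKM. Of the markers of other cells, 2 of 10 fibroblast genes, 1 of 12 immune genes and 1 of 8 endothelial genes were measured. Their summed levels were 8.20 and 6.54 FPKM, 3.42 and 3.88 FPKM, and 3.33 and 3.97 FPKM. The measured ones were COL1A1 (5.75 and 4.28 FPKM) and ACTA2 (2.40 and 2.19 FPKM), CD68 (2.64 and 2.85 FPKM) and ESAM (3.21 and 3.69 FPKM). The defining immune gene PTPRC was listed at 0 in both libraries, and the endothelial genes PECAM1 (0.0232 and 0.0251 FPKM) and CDH5 (0.0129 and 0 FPKM) were at or near 0.

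No Kruppel-like factor gene was 1.5-fold apart between the libraries. Of all genes measured, 2.99% were (1.45% higher and 1.54% lower in the LPA library), so none among 10 lies close to that background. KLF11 had the highest log2 ratio of the family, 0.30, and KLF6 the lowest, -0.27. Below 0 were 7 of 10 genes, against 49.8% of all genes measured, and the family median was -0.08 beside a median of 0.00 over all genes. The summed level of the 10 genes was 126 FPKM without LPA and 121 FPKM with LPA. All 4 activators were below 0, with a median log2 ratio of -0.17 and summed levels of 58.5 and 51.4 FPKM. The 5 SIN3A-binding repressors were split, 3 above and 2 below 0 (KLF16 lay below 0 with upper quartile scaling and when centred on reference genes), with a median of 0.02 and summed levels of 62.1 and 64.6 FPKM. The difference between these classes was not tested.

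**Figure D1:**
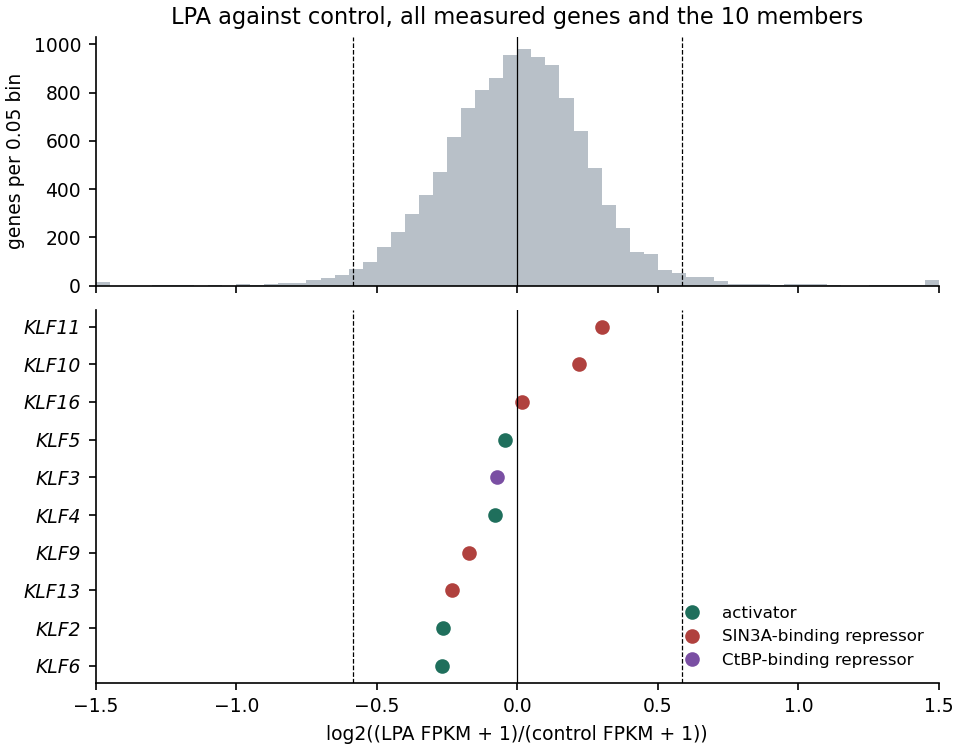
The upper panel counts the 11686 measured genes by log2 ratio in bins of 0.05, with values beyond 1.5 in size placed in the outer bins, and the lower panel places each of the 10 Kruppel-like factor genes on the same axis, coloured by class. Dashed lines mark 1.5-fold, and all 10 genes sit between them, from KLF6 at -0.27 to KLF11 at 0.30.

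KLF16 had the highest level of the family in both libraries and KLF9 and KLF11 the lowest. The order from the highest to the lowest in the control was KLF16, KLF2, KLF10, KLF4, KLF6, KLF5, KLF13, KLF3, KLF9 and KLF11. Between these neighbours the counting intervals overlapped for KLF2 and KLF10, for KLF4 and KLF6, and for KLF9 and KLF11. In the LPA library KLF10 stood before KLF2 and KLF11 before KLF9, with the other genes in the same places. There the intervals overlapped for KLF2 and KLF4 and for KLF6 and KLF5.

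**Figure D2:**
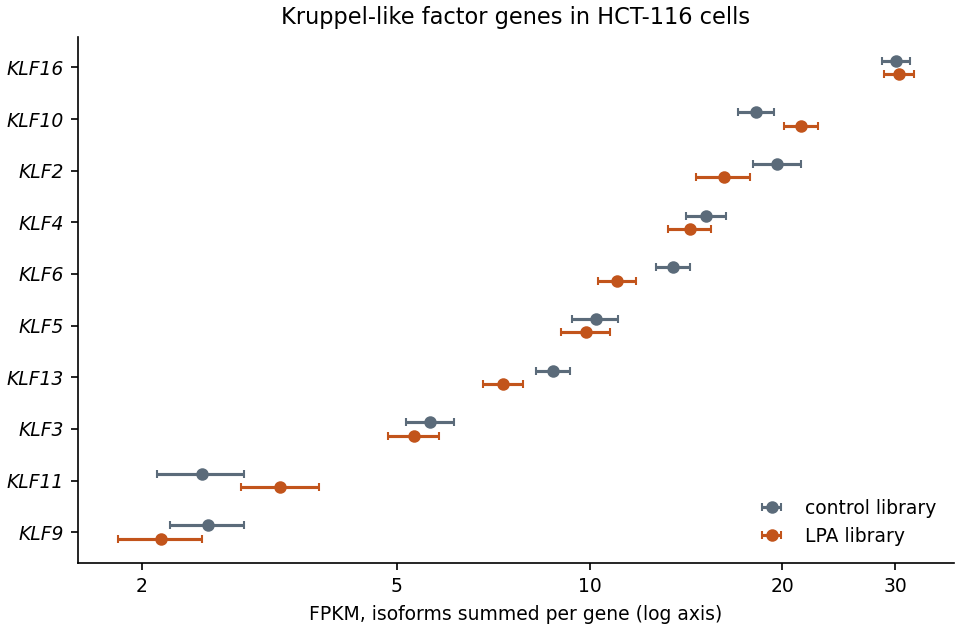
Each point is a gene's summed FPKM in 1 library on a log axis, and the bars are 95% Poisson intervals from estimated fragments, which hold no replicate error. KLF16 is highest at 30.1 and 30.4 FPKM, and the KLF2 and KLF10 pair and the KLF9 and KLF11 pair stand in opposite order in the libraries.

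Among the activators, KLF2 on chromosome 19 (16324840 to 16327528, plus strand of hg38, 1 isoform) is known for holding endothelial cells and T cells in a resting state. It had 19.6 FPKM without LPA and 16.2 FPKM with LPA, about 540 and 420 fragments. The LPA value was thus 0.825 of the control value, and the counting interval of the log2 quotient of FPKM, taken without a pseudocount, ran from -0.47 to -0.09. The log2 ratio of -0.26 lay at percentile 14.5 of all genes measured. In endothelium KLF2 is switched on through the kinase ERK5 and MEF2 factors, and the stretch before its start carries a match to the MEF2 motif. The 250 bases before the RefSeq start (GRCh38.p14, chr19:16324576-16324825, plus strand) are shown because both motifs stand in them, with GGGCGG (the GC box, either strand) and the MEF2 match in capitals.

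KLF2: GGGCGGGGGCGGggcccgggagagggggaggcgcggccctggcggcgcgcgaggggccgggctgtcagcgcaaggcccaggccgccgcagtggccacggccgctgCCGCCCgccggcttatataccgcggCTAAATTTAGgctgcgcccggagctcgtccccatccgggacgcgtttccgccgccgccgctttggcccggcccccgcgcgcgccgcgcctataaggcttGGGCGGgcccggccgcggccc

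GGGCGG was present in 42.6% and the MEF2 motif in 2.80% of 35116 RefSeq promoter windows of this length. The MEF2 genes themselves were MEF2D (8.87 and 7.71 FPKM), MEF2C (7.70 and 6.30 FPKM) and MEF2A (6.57 and 6.17 FPKM), and the ERK5 gene MAPK7 had 3.70 and 3.19 FPKM. All 4 were lower in the LPA library, each by less than 1.5-fold. In the whole arm 6 of 8 genes were below 0, where 49.8% of all genes measured were. Above 0 were MEF2B and MAP3K2 (1.89 and 2.12 FPKM). Whether the arm or the MEF2 match bears on the KLF2 level was not tested. MEF2B alone of 8 genes in this arm was past 1.5-fold, with 4.85 and 8.31 FPKM. Its locus overlaps the read-through MEF2BNB-MEF2B (4.70 and 2.52 FPKM), MEF2BNB (1.69 and 3.10 FPKM), NR2C2AP (24.2 and 35.2 FPKM) and RFXANK (25.6 and 29.6 FPKM), so its value is uncertain. The median log2 ratio of the arm was -0.11, and 0.08 when the leading isoform stood for each gene. Of the endothelial targets of KLF2, NOS3 had 4.42 and 4.15 FPKM and THBD, which encodes thrombomodulin, 0.0183 and 0.0616 FPKM.

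KLF4 on chromosome 9 (107484852 to 107489766, minus strand, 1 isoform) encodes a factor of epithelial differentiation that is also used to reprogram cells. Its level was 15.2 FPKM without LPA and 14.3 FPKM with LPA. The counting interval, from -0.24 to 0.07, included 0.

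KLF6 on chromosome 10 (3775996 to 3785281, minus strand) is widely expressed and has been described as a tumour suppressor. It had 13.49 and 11.04 FPKM, about 1050 and 810 fragments. Its counting interval ran from -0.42 to -0.16, and its log2 ratio of -0.27 lay at percentile 14.3. Of its 4 isoforms, the one matching NM_001300 (4662 nt) held nearly all of the signal, with 13.49 and 11.04 FPKM. The other 3 were listed at or below 0.00282 FPKM, with deposited upper bounds of up to 0.0647 FPKM. The known shorter splice forms of KLF6 were thus not seen above that bound.

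KLF5 on chromosome 13 (73054976 to 73077542, plus strand) had almost the same summed level in both libraries, 10.2 and 9.88 FPKM, with a log2 ratio of -0.04 and a counting interval from -0.22 to 0.13. Its 2 isoforms, however, differed in opposite directions. The isoform matching NM_001730 (3566 nt) had 7.88 FPKM in the control, with deposited bounds of 5.32 and 10.4, and 4.91 FPKM in the LPA library, with bounds of 2.92 and 6.91. The isoform matching NM_001286818 (2952 nt) had 2.33 FPKM (bounds 0.792 and 3.88) and 4.96 FPKM (bounds 2.83 and 7.09). The share of KLF5 signal from NM_001286818 was 22.8% without LPA and 50.2% with LPA. The bounds of each isoform overlapped between the libraries, and they come from the authors' software, at a level the file does not state.

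These KLF5 isoforms begin at different places. GENCODE 29 places the start of the transcript paired with NM_001286818 at 73054976 and that paired with NM_001730 at 73058792. The RefSeq promoter table holds windows for starts at 73054976 and 73059005, which lie 4029 bases apart. The downstream RefSeq window (chr13:73058755-73059004) thus holds 37 bases before the GENCODE start and 213 bases from that start on, which GENCODE counts to the transcript. Sequence is shown because the isoforms differ in their start: the whole upstream window (chr13:73054726-73054975, plus strand, GRCh38.p14) and the bases of the downstream window that lie before both annotated starts (chr13:73058755-73058791). Capitals mark CACCC, read here on the other strand as GGGTG, and TATAAA in the first, and CCAAT in the second.

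KLF5 upstream start: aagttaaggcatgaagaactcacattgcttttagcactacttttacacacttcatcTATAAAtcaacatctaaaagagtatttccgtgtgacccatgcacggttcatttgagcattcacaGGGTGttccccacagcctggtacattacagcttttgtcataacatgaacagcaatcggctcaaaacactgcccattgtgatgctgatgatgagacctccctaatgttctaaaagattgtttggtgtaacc
KLF5 downstream start: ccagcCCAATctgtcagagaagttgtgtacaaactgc

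The upstream window had a GC content of 40.8%, with no match to GGGCGG or to the CCAAT box on either strand, 1 CACCC box and 1 match to TATAAA. The whole downstream window had 70.8%, with no match to TATAAA and 2 matches each to GGGCGG, to the CCAAT box and to the CACCC box. Of these 6 matches, 5 lie after the GENCODE start. The median GC content over all windows was 58.0%. CCAAT was found in 32.0% of all windows, the CACCC box in 54.7% and TATAAA in 10.7%. A match is a run of letters and was not tied to any factor here.

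Leading start sites differed between the libraries for KLF5 but not for KLF10 or KLF11. The lead was narrow for KLF5 in the LPA library, where its starts held 50.2% and 49.8% of the gene. Near a tie as well were the upper KLF11 starts in the control, with 50.9% and 49.1%. The other start of KLF13 was listed at 0 in both libraries and allowed no shift. Over the 2823 measured genes with more than 1 start, 10.6% had another leading start. The KLF5 share shift of 27.4 percentage points lay at percentile 89.8 of these genes, whose median was 3.30 points. At the level of isoforms, another leading isoform was found for 15.8% of 6664 genes, and for KLF5 but not for KLF6, KLF10 or KLF11.

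**Figure D3:**
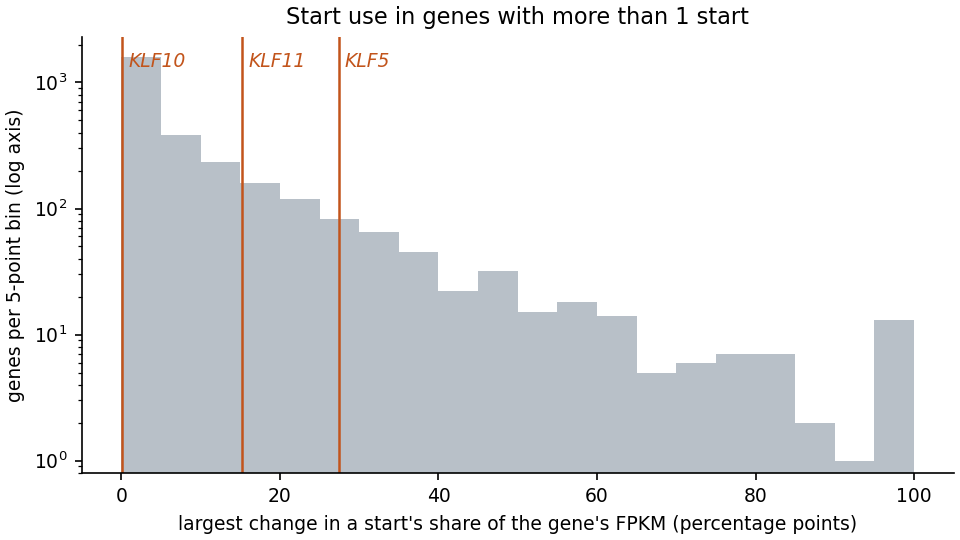
Bars count measured genes with more than 1 start by the largest change in the share of a start between the libraries, in bins of 5 percentage points on a log axis. Vertical lines mark KLF10 at 0.0827, KLF11 at 15.2 and KLF5 at 27.4 points.

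KLF3, the one CtBP-binding repressor of the set, lies on chromosome 4 (plus strand, 1 isoform) and is known from blood cells and fat tissue. Its locus is listed from 38612701 to 38701508, but GENCODE 29 starts the transcript paired with its isoform at 38664196. KLF3 had 5.64 and 5.32 FPKM, with a counting interval from -0.27 to 0.10. Its antisense neighbour KLF3-AS1, whose reads a library without strand marks cannot separate from it, had 0.116 and 0.0308 FPKM. The corepressor genes CTBP1 (70.2 and 71.3 FPKM) and CTBP2 (29.04 and 31.3 FPKM) were close to equal in both libraries.

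Of the SIN3A-binding group, KLF10 on chromosome 8 (102648777 to 102655902, minus strand), first described as an early gene of TGF-beta, had 18.2 FPKM without LPA and 21.4 FPKM with LPA. These are about 949 and 997 fragments, the counting interval ran from 0.10 to 0.36, and the log2 ratio of 0.22 lay at percentile 83.2. Its main isoform, matching NM_005655, had 15.8 FPKM (bounds 11.1 and 20.6) and 17.6 FPKM (bounds 12.3 and 22.8).

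Some minor KLF10 isoforms were each near 0 in 1 of the libraries. The isoform matching NM_001032282 had 2.40 FPKM in the control, with bounds of 0.526 and 4.28, and 0.000525 FPKM in the LPA library, with an upper bound of 0.0404. The isoform matching NR_103759, a transcript listed as non-coding, was listed at 0 in the control, with an upper bound of 0.0674, and had 2.80 FPKM in the LPA library, with bounds of 0.132 and 5.47. Each of the 2 reached a mean of 1 FPKM only through the library where it was high, so nothing is read from their count. They were the 2 of 14 measured member isoforms that were past 1.5-fold with separate bounds, where 4.61% of 16999 measured isoforms were. Whatever the bounds, 4 of the 14 were past 1.5-fold (18.1% of all measured isoforms), the other 2 being those of KLF5. The 2 KLF10 isoforms belong to 1 start site, and the level of that start was 2.40 and 2.80 FPKM, 13.2% and 13.1% of the gene. An isoform of another splice pattern, nearest to NM_001032282, was listed at 0 in the control and had 1.03 FPKM in the LPA library, with overlapping bounds.

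KLF11 on chromosome 2 (10043555 to 10054836, plus strand), a close relative of KLF10 that is also linked to TGF-beta, had 2.48 FPKM without LPA and 3.29 FPKM with LPA. With about 164 and 204 fragments it rests on few reads, and its counting interval ran from 0.11 to 0.71. The log2 ratio of 0.30 lay at percentile 90.6. The isoform matching NM_003597 had nearly the same level in both libraries, 1.22 and 1.12 FPKM. The isoform matching NM_001177716 had 1.26 FPKM (bounds 0.613 and 1.91) without LPA and 2.18 FPKM (bounds 1.30 and 3.05) with LPA. Its share of the gene was 50.9% and 66.1%, so the gene's difference lay in this isoform, though its bounds overlapped between the libraries. GENCODE 29 starts the transcript paired with it at 10043829. The transcript paired with NM_003597 starts at 10043555, so the 250 bases before the former start lie wholly after the latter and are not shown.

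GGGCGG was found in 8 of the 10 windows matched for 8 members, all but those of KLF9 and of the upstream KLF5 start. Of all 35116 windows 42.6% held it. The 8 windows with a match were rich in GC, from 69.2% to 86.4%, where the median over all windows was 58.0%. Both KLF11 windows lie after the GENCODE start at 10043555, and most of the downstream KLF5 window lies within its transcript. The KLF6 window (3785210 to 3785459, minus strand) runs past the GENCODE start at 3785275, and the KLF2 window runs past that at 16324817.

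**Figure D4:**
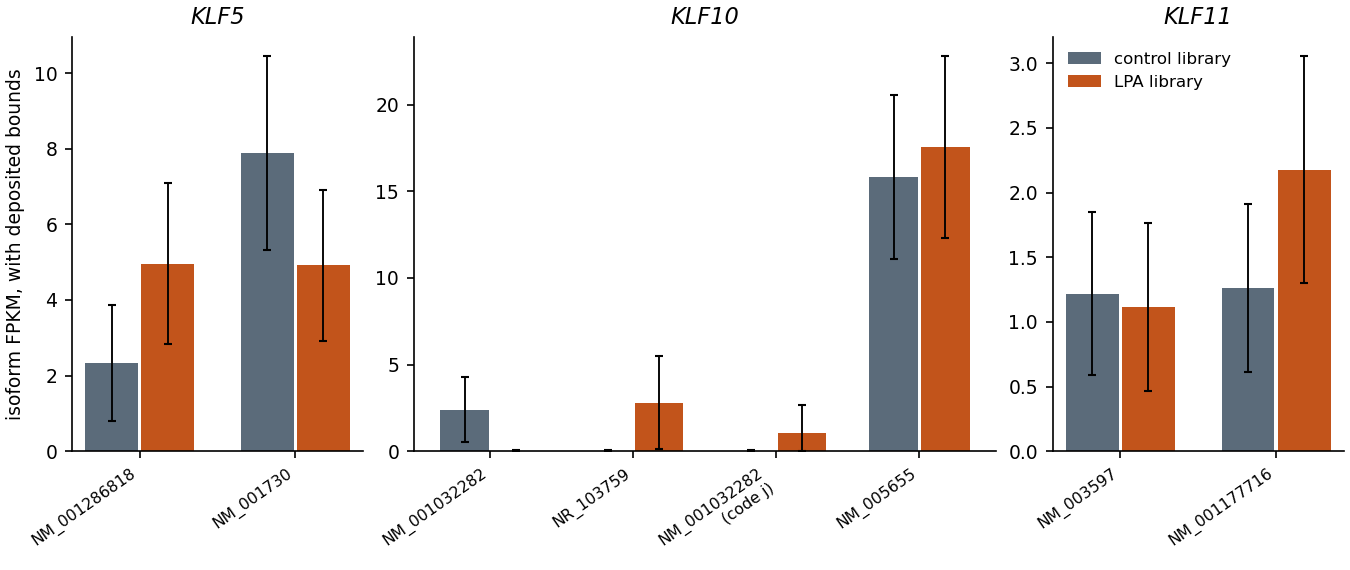
Bars give the FPKM of the isoforms of KLF5, KLF10 and KLF11 that passed 0.1 FPKM in at least 1 library, named by their nearest RefSeq transcript, with the deposited lower and upper bounds as whiskers and an own scale for each gene. KLF5 goes from 7.88 to 4.91 FPKM for NM_001730 and from 2.33 to 4.96 FPKM for NM_001286818, and the small KLF10 isoforms are each near 0 in 1 of the libraries.

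KLF13 on chromosome 15 (31326855 to 31435665, plus strand), known as a regulator of CCL5 in T cells, had 8.77 and 7.33 FPKM, about 999 and 787 fragments. Its counting interval ran from -0.40 to -0.12 and its log2 ratio of -0.23 lay at percentile 17.7. All of its signal came from 1 of 4 isoforms. Another 2 of the 4 are copies on an alternate contig of the same region and were listed at 0 in both libraries.

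KLF9 on chromosome 9 (70384597 to 70414657, minus strand, 1 isoform) is induced by glucocorticoid and thyroid hormone in many tissues. Its level was low, 2.53 and 2.14 FPKM, and the counting interval from -0.54 to 0.05 included 0. KLF16 on chromosome 19 (1852399 to 1863565, minus strand, 1 isoform), which encodes a GC box binding factor, had 30.1 and 30.4 FPKM. Its log2 ratio of 0.02, with an interval from -0.09 to 0.12, was the one nearest to 0.

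Counting error alone thus left 5 of the 10 genes apart from 0: KLF2, KLF6 and KLF13 lower, and KLF10 and KLF11 higher in the LPA library. The same held for 47.9% of all genes measured, which is the background against which these 5 should be read. The intervals do not hold the spread between cultures. The deposited bounds of the leading isoform of each of these 5 genes overlapped between the libraries. For KLF2 they were 13.6 and 25.6 in the control and 11.02 and 21.4 in the LPA library. Those of KLF6 were 9.70 and 17.3 in the control and 7.95 and 14.1 in the LPA library. Those of KLF13 were 6.33 and 11.2 in the control and 5.28 and 9.38 in the LPA library.

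The remaining family was sparse in these cells. Of 8 other KLF genes listed, 7 were in the table and 2 were measured, KLF15 (1.59 and 1.25 FPKM) and KLF7 (1.09 and 1.07 FPKM). KLF1, KLF8, KLF12 and KLF14 were under 1 FPKM and KLF17 was listed at 0 in both libraries. SP factors bind the same GC boxes, and 5 of 9 SP genes were measured, 1 above and 4 below 0, with a median log2 ratio of -0.14. SP1 had 10.8 and 13.3 FPKM, SP3 10.8 and 8.58 FPKM and SP2 6.95 and 6.37 FPKM. The SP1 isoforms of different starts differed in direction, with 6.96 and 10.7 FPKM for NM_001251825, which led in both libraries, and 3.83 and 2.58 FPKM for NM_003109. The bounds of both overlapped. In SP3 the leading isoform NM_001017371 had 7.99 and 7.91 FPKM, and NM_003111, of another start, 2.52 and 0.669 FPKM. The bounds of NM_003111 overlapped too, with 1.07 and 3.98 in the control and 0 and 1.34 in the LPA library.

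Genes that act on or with Kruppel-like factors were described from lists, 11 in all, which hold 122 genes other than the 10 members. Of the 92 that were measured, 43 were above and 49 below 0, with a median of -0.01, and 2 were past 1.5-fold, both higher (MEF2B and FOSL1), where 2.99% of all genes measured were. The SIN3A gene, whose product the KLF9 to KLF16 group recruits, had 6.89 and 8.33 FPKM. All 11 cofactor genes together, 10 of them measured, had a median of -0.01 (above 0 without a filter and at a mean of 5 FPKM or more), with HDAC1 highest at 126 and 123 FPKM. Ubiquitin enzymes that act on KLF proteins had a median of -0.05, 4 above and 5 below 0. The KLF5 ligase gene WWP1 had 8.98 and 8.66 FPKM, FBXW7, another KLF5 ligase gene, 2.27 and 2.71 FPKM, and SMURF2 34.01 and 31.3 FPKM.

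Targets of KLF4 and KLF5 in epithelium were above 0 in 12 of 14 measured cases, against 50.2% of all genes, with a median of 0.12 and none past 1.5-fold. The keratin gene KRT19 had 989 and 1268 FPKM, ODC1, the first enzyme of polyamine synthesis, 145 and 154 FPKM, and MYC 158 and 143 FPKM. EGFR (1.22 and 2.08 FPKM) had the highest log2 ratio of this list, 0.47, and the cell cycle gene CCND1 had 64.8 and 77.2 FPKM. Both, and CDKN1A (141 and 144 FPKM), were named after their values were seen. The differentiation genes ALPI, VIL1 and KRT4 and the stem cell gene LGR5 had 0 FPKM listed in each library, and such a listing does not show absence. The list mixes genes that these factors raise with genes that they lower, and its direction says nothing on either protein.

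The TGF-beta arm around KLF6, KLF10 and KLF11 had 3 genes above and 8 below 0 of 11 measured and a median of -0.02, with ID1 at 570 and 564 FPKM, TGFB1 at 30.1 and 28.8 FPKM and SMAD3 at 15.2 and 17.5 FPKM. Glucocorticoid-induced companions of KLF9 had 4 above and 2 below 0 and a median of 0.03 (-0.02 when centred on the reference genes). Their log2 ratios ran from -0.20 for PER1 to 0.21 for TSC22D3. FKBP5, a standard reporter of glucocorticoid, had 12.6 FPKM in both libraries. Genes of the circadian clock, of which KLF9 and KLF10 are outputs, had 5 above and 7 below 0 and a median of -0.02 (0.01 with the leading isoform). Among them DBP had 20.4 and 17.0 FPKM, PER1 17.2 and 14.8 FPKM and BHLHE40 15.1 FPKM in both. Immediate early genes, a class to which KLF2, KLF4, KLF6 and KLF10 are often counted, had 8 above and 9 below 0 of 17 and a median of -0.08 (above 0 without a filter and at a mean of 5 FPKM or more). Of these FOSL1 was past 1.5-fold, with 48.1 and 77.9 FPKM, while IER3 had 608 and 728 FPKM and JUND 303 and 280 FPKM.

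**Figure D5:**
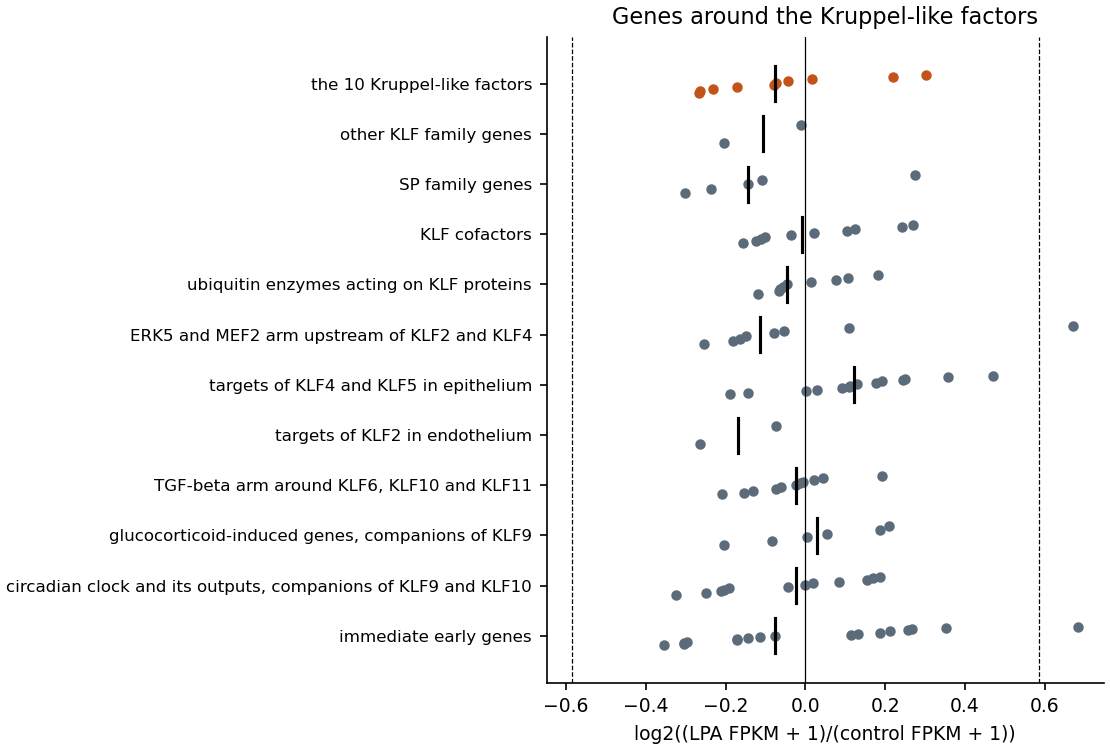
Each point is a measured gene at its log2 ratio, in rows for the 10 Kruppel-like factors and the 11 lists, with the row's median as a black bar, dashed lines at 1.5-fold, and small vertical offsets that carry no value. The KLF2 target row includes KLF2 itself. The row of KLF4 and KLF5 targets has its median at 0.12, and MEF2B and FOSL1 are the 2 points past 1.5-fold.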

How the data were processed

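Poly-A RNA of HCT-116 cells was sequenced as 2 TruSeq V2 libraries, which do not mark strand, and the groups were read from the titles. Per the submitters' processing notes, the authors used hg38 with TopHat2 2.0.12, Cuffdiff 2.2.0, Cufflinks and bcl2fastq 2.16.0.10. Their settings, and the scaling between libraries, are not stated in those notes as held here. The deposited values are FPKM per isoform with lower and upper FPKM bounds, isoform length and status, per the file headers; status and length are other, unscaled columns that the authors deposited.

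Isoforms without the status OK in both libraries (27 of 63236) were left out; no member was among them. FPKM were summed per symbol with Python 3.11.15 and pandas 2.3.3. Filters, pseudocount (1 FPKM) and fold threshold are those given above, and the computation was tested on simulated data. Fragment numbers were estimated from FPKM multiplied by length in genes with 1 isoform over 2000 nt, and intervals are exact binomial (Clopper-Pearson, ratios) or Poisson (levels), computed with SciPy 1.17.1. Locus starts are written 1-based. Promoter windows are from RefSeq (GRCh38.p14), matched by symbol for 8 members apart from KLF3 and KLF10.

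The members and lists were chosen with earlier results of these data known. Named from each list were genes past 1.5-fold and up to 3 others of high level. CTBP2, SIN3A, MAPK7, THBD, WWP1, FBXW7 and the genes listed at 0 were named for their roles after their values were seen. MAP3K2, TSC22D3 and the markers of other cells were also named after their values were seen. With 2 libraries no likeness of patterns was ranked. The alternatives were 11 settings of pseudocount, filter, scaling and isoform choice.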

Additional observations from a re-analysis of the deposited data

How the results depend on the processing

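When only the leading isoform of each gene was used, 1 of the 10 Kruppel-like factor genes was past 1.5-fold instead of 0. It was KLF5, where NM_001730 leads by the mean over both libraries, at -0.587, just past the threshold of 0.585 in size. Under this setting 931 of 11373 genes were past 1.5-fold, against 349 of 11686 in the main computation, so nothing is read from this 1. Under the other 10 alternatives none of the members was past 1.5-fold. The number of members below 0 stayed between 6 and 8. It was 6 of the 8 members measured at a mean of 5 FPKM or more, where 47.6% of all genes were below 0. With upper quartile scaling it was 8 of 10 (53.1% of all genes), and likewise when centred on the reference genes (58.5%). KLF16 alone changed sign, to -0.01 with upper quartile scaling and -0.04 when centred on the reference genes. Of 108 recomputed member values 107 stayed within the counting interval, all but that of KLF5 with the leading isoform. Of 120 recomputed list medians 7 changed sign: cofactors (-0.01) to 0.01 without a filter and 0.06 at a mean of 5 FPKM or more, immediate early genes (-0.08) to 0.03 and 0.02 under the same settings, glucocorticoid-induced genes (0.03) to -0.02 when centred on the reference genes, and, with the leading isoform, the ERK5 and MEF2 arm (-0.11) to 0.08 and clock genes (-0.02) to 0.01. The number of list genes past 1.5-fold was 1 with a pseudocount of 5 FPKM and 5 with the leading isoform, instead of 2. Over all genes the numbers under these settings were 111 of 11686 and 931 of 11373. Without regard to bounds, 4 member isoforms were past 1.5-fold instead of 2 (18.1% of all measured isoforms were).

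Over all 11686 genes measured 349 were past 1.5-fold, against 653 with a pseudocount of 0.1 FPKM and 111 with one of 5 FPKM. The number was 209 of 7760 at a mean of 5 FPKM or more and 931 of 11373 with the leading isoform. Higher and lower calls were 169 and 180 in the main computation, and 127 and 258 when centred on the reference genes. With 1 library per group neither a paired analysis nor leaving out a replicate was possible.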
